A study of Mus musculus with 4 samples.

Results

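The contractile program of smooth muscle was followed in cultured mouse ureters through 39 genes, chosen by their known function in thin filaments, myosin and its control, filament anchoring and adhesion, transcription, and excitability. Earlier results of these data were known when the genes were chosen. All 39 were among the 29924 gene names on the array, with 62 of its 39429 probes, and 38 could be tested. Ureters of NMRI mice were explanted at birth (P0) and kept for 8 days in medium with the solvent DMSO or with 2 µM purmorphamine, an agonist of SHH signaling. *Pparg-cKO* ureters carried Pax2-cre/+ with *Pparg* (fl/fl), so that *Pparg* was deleted in the ureteric epithelium and not in the muscle. The control littermates lacked cre and are labelled *Pparg* (fl/?). RNA was pooled by sex, and on each of the 4 two-color arrays a DMSO pool was hybridized together with the purmorphamine pool of the same genotype and sex. Each of the 4 groups therefore had 2 pools, 1 male (replicate 1) and 1 female (replicate 2). The number of ureters per pool is not given in the sources used here, and p-values measure only the spread between these pools.

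Smooth muscle cells contract when calcium, entering through voltage-gated channels or released from internal stores, binds calmodulin and switches on myosin light chain kinase. Actin and tropomyosin form the thin filaments along which smooth muscle myosin pulls, and intermediate filaments and adhesion plaques carry the force to the membrane. Many of these genes are activated by serum response factor (SRF) with its cofactor myocardin through a DNA element called the CArG box. In the ureter, a sheath of smooth muscle around the urothelium moves urine by peristalsis, and it differentiates from mesenchyme that receives SHH from the epithelium.

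Per pool, 66.3% to 70.5% of spots exceeded background clearly, and 0 spots were saturated. Of the 39 genes, 36 were well above background in all 8 pools, *Pln* in 5, *Ryr2* in 3 and *Chrm2* in none. The defining smooth muscle genes *Acta2*, *Actg2*, *Myh11*, *Tagln*, *Cnn1*, *Des* and *Smtn* were measured in every pool, as were all 9 urothelial markers. Of 12 skeletal muscle genes, 6 to 7 were above background per pool, among them *Ckm*, *Acta1* and *Actn3*, and 5 (*Myh1*, *Myh3*, *Ttn*, *Myog* and *Myod1*) were in no pool. Of these, *Ckm* is not particular to skeletal muscle here, since the paper stains CKM as a smooth muscle marker of the ureter. Of 6 cardiac muscle genes, 5 to 6 were above background per pool. Male and female pools also differed in dye orientation, so that sex, dye and replicate number cannot be told apart. The *Pparg* probe lies outside the deleted exons and checks no label.

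The first question was what purmorphamine did to these genes. Nearly all of them were higher with purmorphamine in both genotypes. In control ureters, 36 of the 38 tested genes had a positive log2 difference (purmorphamine minus DMSO), and 35 were positive in both the male and the female pair, against 30.9% of all genes tested (and 1 negative in both, against 27.9%). In *Pparg-cKO* ureters the counts were again 36 and 35 of 38, against 33.9% of all genes. The median log2 difference of the 38 genes was 0.58 in control ureters (0.69 in the male pair and 0.49 in the female pair) and 0.54 in *Pparg-cKO* ureters (0.52 and 0.79), while the median over all 20229 genes was 0.02 and -0.0024. *Pln* and *Ryr2* entered the test only through the purmorphamine groups, which favours a positive sign, so the same was counted over the 36 genes above background in all 8 pools. Of these, 34 were positive in each genotype, 33 in control and 34 in *Pparg-cKO* ureters in both pairs, and the medians were 0.59 and 0.59.

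**Figure D1:**
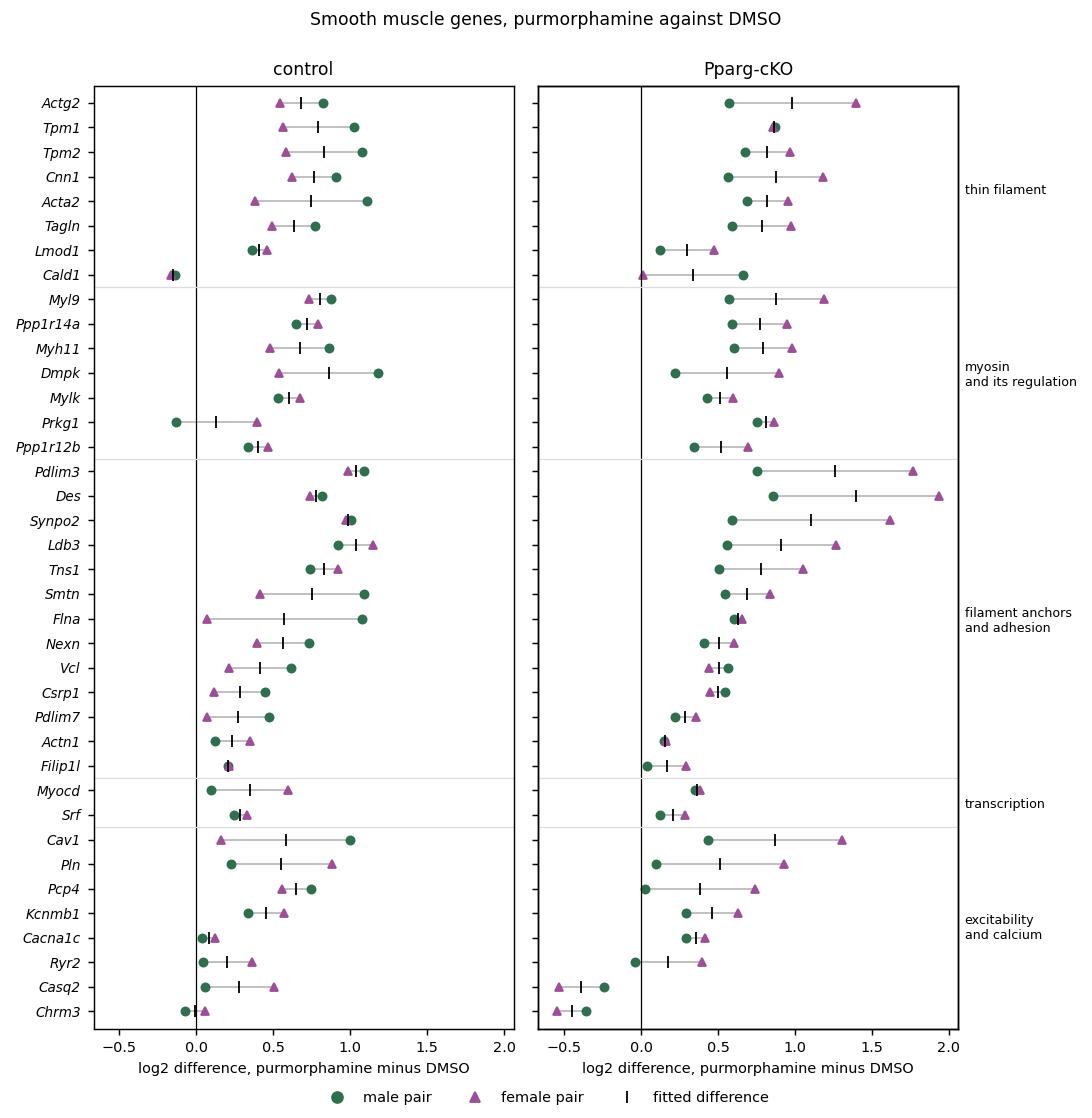
Log2 difference, purmorphamine minus DMSO, of 38 smooth muscle genes in control (left) and *Pparg-cKO* ureters (right), with circles for the male pair, triangles for the female pair and a tick for the fitted difference, grouped by role. Most genes lie to the right of 0 in both pairs, and *Chrm3* and *Casq2* lie to the left in *Pparg-cKO*.

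Single genes rarely passed the test within 1 genotype. At an adjusted p under 0.05 (limma, adjusted over all probes tested), 0 of the 38 genes were called in control ureters, where 1.2% of all genes were called in either direction. Before adjustment, p was under 0.05 for 24 with a higher and 0 with a lower value, against 9.77% and 9.83% of all genes. In *Pparg-cKO* ureters, 2 of 38 rose, *Tpm1* and *Ppp1r14a*, and 0 fell, against 1.85% and 2.8% of all genes, or 4.65% in either direction. Before adjustment, 24 had a higher and 1 a lower value with p under 0.05 there (9.85% and 12.4% of all genes). The rule of the study's methods was an intensity above 100 and a change of at least 1.5-fold in both pairs, with no test. By it, 11 of the genes were higher and 0 lower in each genotype. Over all genes, 15321 passed that intensity in control and 15402 in *Pparg-cKO* ureters. Of those, 2.76% were higher and 3.69% lower in control, and 3.88% and 4.79% in *Pparg-cKO* ureters. These 11 were *Cnn1*, *Des*, *Ldb3*, *Myl9*, *Pcp4*, *Pdlim3*, *Ppp1r14a*, *Synpo2*, *Tns1*, *Tpm1* and *Tpm2* in control ureters, and *Acta2*, *Des*, *Ldb3*, *Myh11*, *Pdlim3*, *Ppp1r14a*, *Prkg1*, *Synpo2*, *Tpm1*, *Tpm2* and *Vcl* in *Pparg-cKO* ureters. The groups did not overlap, with purmorphamine higher, for 35 of 38 genes in control ureters (24.9% of all genes) and 34 in *Pparg-cKO* ureters (26.5%). The reverse held for 1 gene (22%) and 2 genes (28.3%).

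Averaging the effect over both genotypes, a contrast added after the values were seen, uses all 4 arrays. It called 20 of the 38 genes higher and 0 lower, against 5.99% and 7.51% of all genes. The 20 comprised 6 of 8 thin filament genes, 5 of 7 genes of myosin and its regulation, 8 of 13 anchor and adhesion genes, 0 of 2 transcription factors and 1 of 8 genes of excitability and calcium. The count depended on single arrays. It fell when any array but *Pparg-cKO* replicate 1 was left out, a fit that leaves 1 array in a genotype. The count over all genes fell with each array left out, so the drop was not particular to the smooth muscle genes. With no filter on dim probes, 11 smooth muscle genes were called. There 2034 of 29924 genes were called in either direction, against 2731 of 20229 with the filter. Of the 20 calls, 17 were lost under at least 1 alternative, and those of *Tpm1*, *Tpm2* and *Ppp1r14a* under none of those run.

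Genes of other cell types moved in the same comparison. In whole-ureter RNA, fewer cells of a type and less RNA per cell cannot be told apart. All 7 fibroblast markers (collagens, *Pdgfra*, *Dcn*, *Lum* and *Dpt*) had positive differences in both genotypes, with medians of 0.45 in control and 0.46 in *Pparg-cKO* ureters. None was called within a genotype, and on average *Col1a1* and *Lum* rose. Of all genes, 0.282% were called higher in control and 1.85% in *Pparg-cKO* ureters, and on average 5.99% higher and 7.51% lower. All 5 endothelial markers were positive with medians of 1.11 and 1.10, and 1 rose in control ureters, 2 in *Pparg-cKO* ureters and 4 on average. All 4 macrophage markers were negative with medians of -0.74 and -0.62, and 3 of them fell on average. Of the striated muscle genes, *Ckm*, *Acta1* and *Actn3* of the 6 skeletal genes tested and *Tnnt2* and *Actc1* of the 6 cardiac genes rose on average, and of 7 pericyte markers *Pdgfrb* and *Notch3* rose. The paper uses CKM as a smooth muscle marker in the ureter, so *Ckm* does not mark another cell type here.

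The log2 of the summed intensity of the 7 defining smooth muscle genes was 18.1 to 18.6 in the 4 DMSO pools and 19.1 to 19.3 in the 4 purmorphamine pools. For the 9 urothelial markers it was 18.5 to 18.7 in DMSO pools and 18.5 to 18.8 with purmorphamine, for the 7 fibroblast markers 18.1 to 18.6 and 18.7 to 19.0, and for the 5 endothelial markers 12.9 to 13.9 and 14.3 to 14.99. The 4 macrophage markers summed to 16.6 to 16.9 and 15.8 to 16.3. The urothelial sum holds opposite changes, since *Krt18*, *Upk1b* and *Upk2* rose and *Epcam* fell on average, and the differences in *Pparg-cKO* ureters ran from -1.22 to 1.72. The 4 fat cell markers (*Adipoq*, *Plin1*, *Cidec* and *Fabp4*) were negative with medians of -0.24 in control and -1.11 in *Pparg-cKO* ureters and 0 called, and their sum was 14.146 in the male *Pparg-cKO* purmorphamine pool against 16.1 to 17.7 in the other 7. The part of these shifts in the smooth muscle result was not tested.

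**Figure D2:**
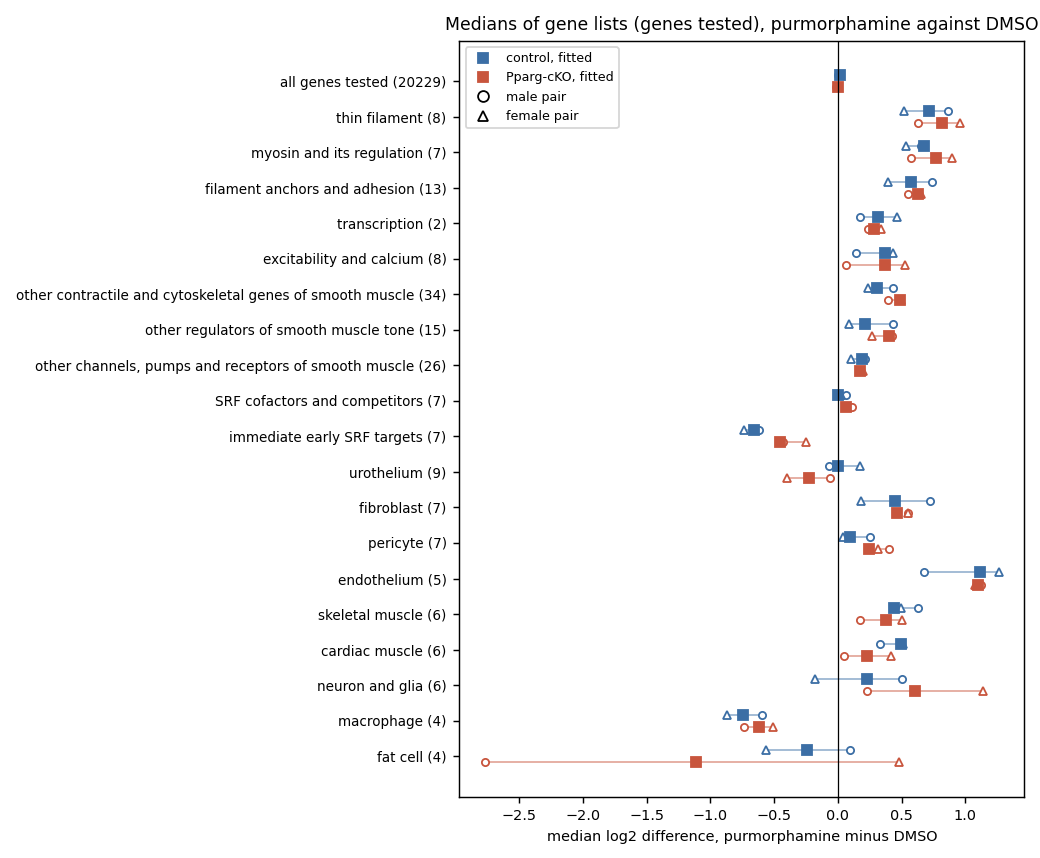
Median log2 difference, purmorphamine minus DMSO, of each gene list (number of genes tested in brackets), with squares for the fitted values and open symbols for the male and female pairs, in control (blue) and *Pparg-cKO* ureters (red). All 5 groups of the 39 genes lie above 0, the endothelial list higher still, and the immediate early, macrophage and fat cell lists below 0, with the urothelial list near or below 0 and the male and female fat cell pairs on opposite sides of 0.

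Among the thin filament genes, the smooth muscle actins and their partners stood close together. Log2 intensities are given for the male and then the female pool. *Acta2*, smooth muscle alpha-actin, measured 16.26 and 16.80 in control DMSO pools and 17.37 and 17.18 with purmorphamine, and in *Pparg-cKO* 16.56 and 16.52 against 17.25 and 17.47. Every purmorphamine pool was above every DMSO pool, and the averaged difference was 0.78 ± 0.14 (log2 ± SE, a 1.72-fold rise, adjusted p = 0.0313). *Actg2*, the gamma-actin of visceral muscle, went from 15.56 and 15.94 to 16.38 and 16.48 in control and from 15.87 and 15.47 to 16.44 and 16.87 in *Pparg-cKO*. Its averaged rise was 0.83 ± 0.15 (adjusted p = 0.0334), again with no overlap between treatments.

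*Tagln*, an actin-binding protein that marks early smooth muscle, was at 15.94 and 16.23 in control DMSO pools, 16.71 and 16.73 with purmorphamine, 16.18 and 16.04 in *Pparg-cKO* DMSO pools and 16.77 and 17.01 with purmorphamine. *Cnn1*, calponin, which restrains actomyosin, was at 15.43 and 15.92, 16.34 and 16.55, 15.81 and 15.50, and 16.38 and 16.68 in the same order of groups. Both rose on average, by 0.71 ± 0.10 (adjusted p = 0.0193) and 0.82 ± 0.13 (adjusted p = 0.0226). For both, the 4 purmorphamine pools lay above the 4 DMSO pools. The beta-tropomyosin *Tpm2* measured 15.51 and 16.06 in control DMSO pools, 16.58 and 16.65 with purmorphamine, and 15.96 and 15.89 against 16.64 and 16.86 in *Pparg-cKO* (0.82 ± 0.11, adjusted p = 0.0181). The filament nucleator *Lmod1* did not pass (0.35 ± 0.09, adjusted p = 0.0674). *Cald1*, caldesmon, was the exception of the group, with 12.33 and 12.45 in control DMSO pools against 12.20 and 12.28 with purmorphamine, and 12.22 and 12.20 against 12.88 and 12.22 in *Pparg-cKO* (averaged 0.09 ± 0.12, adjusted p = 0.688).

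**Figure D3:**
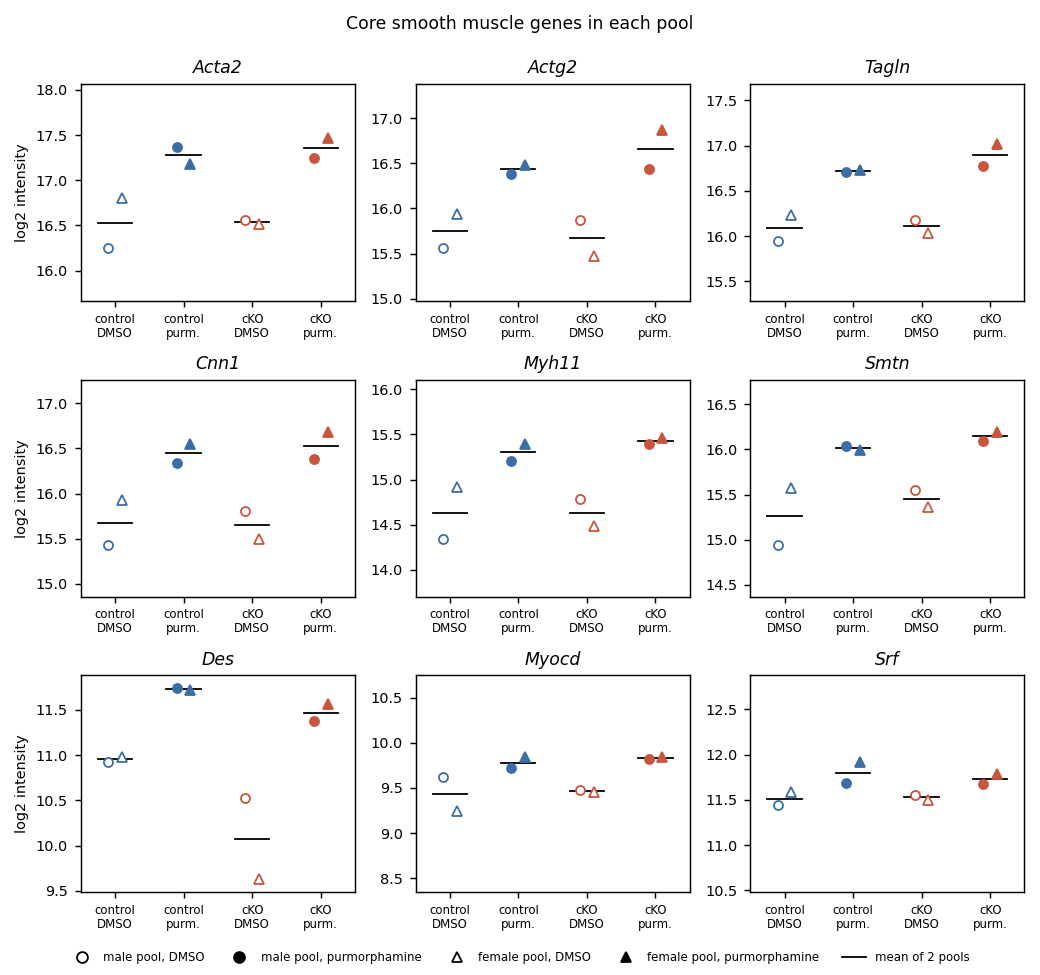
Log2 intensity of 9 core smooth muscle genes in the 8 pools, with circles for male and triangles for female pools, open for DMSO and filled for purmorphamine, and a line at the mean of each group. All 4 purmorphamine pools lie above all 4 DMSO pools in each panel shown.

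*Tpm1*, alpha-tropomyosin, is spliced into many forms, and its 5 probes did not move together. The 2 probes printed here, both 60 bases of mm9 chromosome 9 on the minus strand, are shown because the first passed the test between treatments and the second between genotypes:
A_55_P2032192, NM_001164249, chr9:66871166-66871225: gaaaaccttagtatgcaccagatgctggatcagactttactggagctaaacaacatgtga
A_55_P2078680, NM_001164251, chr9:66880274-66880333: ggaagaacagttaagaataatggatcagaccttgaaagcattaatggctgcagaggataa
The first, the brightest probe, measured 15.44 and 15.89 in control DMSO pools, 16.46 and 16.45 with purmorphamine, and 15.65 and 15.79 against 16.53 and 16.65 in *Pparg-cKO*. It rose with purmorphamine in *Pparg-cKO* by 0.86 ± 0.14 (1.82-fold, adjusted p = 0.0460) and on average by 0.83 ± 0.10 (adjusted p = 0.0145). The call in *Pparg-cKO* was lost without either *Pparg-cKO* replicate (adjusted p of 0.138 and 0.267) and when the probes were averaged (difference of 0.34, adjusted p = 0.133). The second measured 12.86 and 12.73 in control DMSO pools, 12.86 and 12.83 with purmorphamine, 13.44 and 13.42 in *Pparg-cKO* DMSO pools and 13.30 and 13.00 with purmorphamine. All 4 *Pparg-cKO* pools lay above the 4 control pools, and within *Pparg-cKO* the purmorphamine pools lay below the DMSO pools. It was higher in *Pparg-cKO* than in control ureters with DMSO by 0.64 (adjusted p = 0.0404), and its purmorphamine differences were 0.05 in control and -0.28 in *Pparg-cKO* ureters (adjusted p of 0.880 and 0.266). The other 3 probes had purmorphamine differences of 0.04 to 0.40 in control and 0.19 to 0.47 in *Pparg-cKO* ureters, none called.

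**Figure D4:**
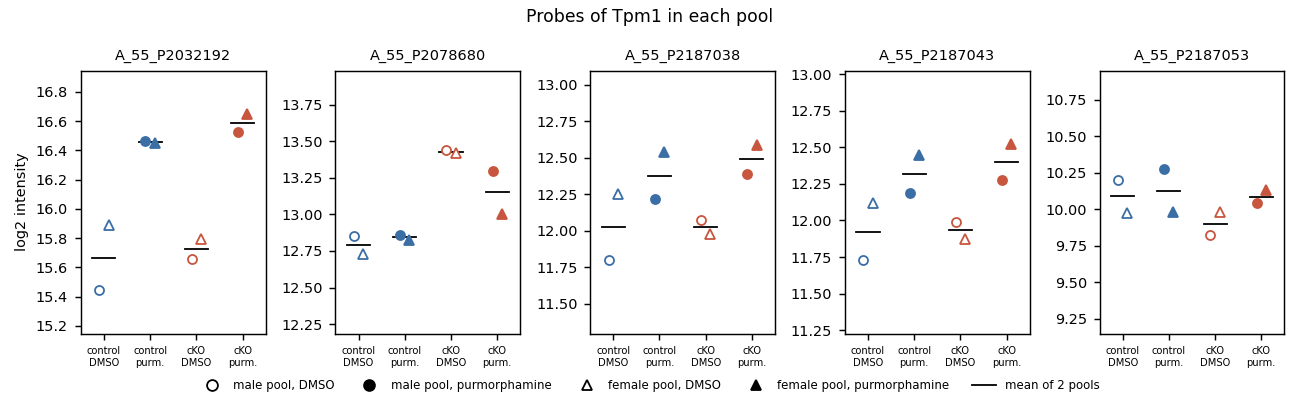
Log2 intensity of the 5 *Tpm1* probes in the 8 pools, drawn as in the plot of core genes, each panel spanning the same range of log2 units. The leftmost probe separates purmorphamine from DMSO, and the next separates *Pparg-cKO* from control.

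Myosin and its regulators followed the thin filament genes. *Myh11*, the smooth muscle myosin heavy chain, measured 14.34 and 14.92 in control DMSO pools, 15.21 and 15.39 with purmorphamine, 14.78 and 14.48 in *Pparg-cKO* DMSO pools and 15.39 and 15.46 with purmorphamine. The regulatory light chain *Myl9* measured 15.66 and 15.84, 16.53 and 16.57, 15.88 and 15.58, and 16.45 and 16.77. Both separated the treatments fully and rose on average, by 0.73 ± 0.11 (1.66-fold, adjusted p = 0.0208) and 0.84 ± 0.12 (1.79-fold, adjusted p = 0.0193). *Ppp1r14a* encodes CPI-17, an inhibitor of myosin phosphatase, and measured 12.81 and 12.95 in control DMSO pools, 13.46 and 13.74 with purmorphamine, 12.59 and 12.43 in *Pparg-cKO* DMSO pools and 13.18 and 13.38 with purmorphamine. It was the second gene called within *Pparg-cKO*, at 0.77 ± 0.13 (1.71-fold, adjusted p = 0.0476), a call lost when any one of the 4 arrays was left out (adjusted p of 0.0595 to 0.442). Its averaged rise was 0.75 ± 0.09 (adjusted p = 0.0151).

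Light chain kinase itself, *Mylk*, rose on average by 0.56 ± 0.08 (adjusted p = 0.0184), and *Ppp1r12b*, a targeting subunit of the phosphatase, by 0.46 ± 0.09 (adjusted p = 0.0384). For *Mylk*, another and much dimmer probe, well above background in 6 pools, had differences of 0.08 in control and 0.06 in *Pparg-cKO* ureters (averaged 0.07, adjusted p = 0.596). A second, dimmer *Ppp1r12b* probe had differences of -0.03 in control and -0.10 in *Pparg-cKO* ureters, and with the mean of both the averaged difference of *Ppp1r12b* was 0.20 (adjusted p = 0.128). *Prkg1*, the cGMP-dependent kinase that relaxes muscle, measured 8.55 and 7.97 in control DMSO pools, 8.41 and 8.37 with purmorphamine, 7.87 and 7.78 in *Pparg-cKO* DMSO pools and 8.62 and 8.65 with purmorphamine. The treatments separated in *Pparg-cKO* (0.81 ± 0.15, adjusted p = 0.0596) and overlapped in control ureters (0.13 ± 0.15). The kinase gene *Dmpk* had differences of 0.86 and 0.56 in the genotypes and did not pass on average (adjusted p = 0.0541).

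The genes that anchor filaments at dense bodies, Z-disc-like structures and adhesions held the largest differences of single genes. As a group they did not differ most. Their median averaged difference was 0.60, against 0.80 for the thin filament genes and 0.71 for myosin and its regulation. All 13 anchor and adhesion genes were positive in both pairs of both genotypes. *Des*, desmin, the intermediate filament of muscle, measured 10.92 and 10.98 in control DMSO pools, 11.74 and 11.72 with purmorphamine, 10.52 and 9.63 in *Pparg-cKO* DMSO pools and 11.38 and 11.57 with purmorphamine. Its fitted difference was 0.78 ± 0.26 in control and 1.40 ± 0.26 in *Pparg-cKO* ureters (adjusted p of 0.213 and 0.0577), and its averaged rise 1.09 ± 0.18 (2.12-fold, adjusted p = 0.0275). *Pdlim3*, which binds alpha-actinin, measured 13.87 and 14.46, 14.96 and 15.44, 14.08 and 13.52, and 14.83 and 15.29 in the same order. With an averaged rise of 1.15 ± 0.17 (2.22-fold, adjusted p = 0.0217) it had the largest difference of the 38 genes.

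*Synpo2*, an actin-bundling partner of filamin, measured 13.22 and 13.59 in control DMSO pools, 14.23 and 14.56 with purmorphamine, and 13.36 and 12.89 against 13.94 and 14.50 in *Pparg-cKO* (1.05 ± 0.18, adjusted p = 0.0272). The Z-disc protein gene *Ldb3* measured 10.94 and 11.46 against 11.86 and 12.61, and 11.16 and 10.93 against 11.72 and 12.20 (0.97 ± 0.14, adjusted p = 0.0186). Both separated the treatments in each genotype. The smoothelin gene *Smtn*, a marker of contractile cells, measured 14.94 and 15.58 against 16.03 and 15.99 in control and 15.55 and 15.36 against 16.10 and 16.19 in *Pparg-cKO* (0.72 ± 0.14, adjusted p = 0.0345). For the focal adhesion gene *Tns1* the values were 13.41 and 13.55 against 14.15 and 14.47, and 13.43 and 13.00 against 13.94 and 14.05 (0.80 ± 0.11, adjusted p = 0.0191). Its other 2 probes had averaged differences of 0.23 and 0.23 (adjusted p of 0.384 and 0.627), and with the mean of the probes of *Tns1* the difference was 0.42 and the call was lost (adjusted p = 0.0980). Vinculin, *Vcl*, which links integrins to actin, measured 14.01 and 14.49 against 14.62 and 14.70 in control and 14.25 and 14.31 against 14.81 and 14.75 in *Pparg-cKO* (0.46 ± 0.10, adjusted p = 0.0439; 0.0702 with the mean of its probes). All 3 separated the treatments, *Vcl* by a small margin in control ureters. The actin-filament gene *Nexn* also rose on average (0.53 ± 0.09, adjusted p = 0.0288), and *Csrp1*, *Flna*, *Pdlim7*, *Actn1* and *Filip1l* did not pass (0.19 to 0.60, adjusted p of 0.0520 to 0.199).

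The transcription factors behind the program differed less between treatments. *Myocd*, myocardin, measured 9.62 and 9.25 in control DMSO pools, 9.72 and 9.84 with purmorphamine, 9.48 and 9.46 in *Pparg-cKO* DMSO pools and 9.82 and 9.85 with purmorphamine. *Srf* measured 11.44 and 11.59, 11.68 and 11.92, 11.55 and 11.50, and 11.67 and 11.79. All purmorphamine pools lay above all DMSO pools for both, but neither passed (averaged 0.36 ± 0.10, adjusted p = 0.0927, and 0.25 ± 0.07, adjusted p = 0.101). A second *Srf* probe was nearly as bright (mean log2 intensity of 11.59 against 11.64) and did not separate the treatments. Its differences were -0.13 in control and -0.07 in *Pparg-cKO* ureters (averaged -0.10, adjusted p = 0.434), so the direction for *Srf* depends on the probe. Of 7 further genes for SRF cofactors and competitors (*Mkl1*, *Mkl2*, *Elk1*, *Elk3*, *Elk4*, *Klf4* and *Klf5*), 0 were called in either genotype or on average, and their median difference was 0.0037 in control and 0.06 in *Pparg-cKO* ureters. Immediate early genes, which SRF activates with ternary complex factors after growth signals, lay on the other side of 0. Of 7 tested, 6 were negative in both pairs in each genotype, with medians of -0.66 and -0.45. Of all genes, 27.9% in control and 36.1% in *Pparg-cKO* ureters were negative in both pairs. *Fos* fell in *Pparg-cKO* by 0.92 ± 0.14 (adjusted p = 0.0382), where 2.8% of all genes fell. On average *Egr1*, *Egr2*, *Fos* and *Junb* fell, against 7.51% of all genes.

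CArG boxes were sought in the 250 bases before the RefSeq transcription starts (GRCm38.p6), which were matched for 34 of the 39 genes. *Actg2*, *Myh11*, *Tagln*, *Myocd* and *Nexn* were not matched and so not searched. The exact CArG box motif on either strand was found for 5 of the 34 genes (*Filip1l*, *Ldb3*, *Myl9*, *Srf* and *Vcl*), against 1.62% of the 27025 genes with a promoter, and the GLI motif TGGGTGGTC or its complement for 0 of 34, against 0.255%. A match is a description of letters and not of binding, and a missing match says only that these letters are absent from this window. The upstream bases of *Srf* and of the 3 genes with a motif that rose on average are printed in the direction of transcription, with the CArG box in capitals:
*Srf*, chr17:46556163-46556412, minus strand: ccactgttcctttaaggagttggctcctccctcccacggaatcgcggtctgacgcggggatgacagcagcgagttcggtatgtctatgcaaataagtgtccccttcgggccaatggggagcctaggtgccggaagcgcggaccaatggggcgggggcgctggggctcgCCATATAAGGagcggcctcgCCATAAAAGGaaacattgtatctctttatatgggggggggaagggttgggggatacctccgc
*Myl9*, chr2:156775214-156775463, plus strand: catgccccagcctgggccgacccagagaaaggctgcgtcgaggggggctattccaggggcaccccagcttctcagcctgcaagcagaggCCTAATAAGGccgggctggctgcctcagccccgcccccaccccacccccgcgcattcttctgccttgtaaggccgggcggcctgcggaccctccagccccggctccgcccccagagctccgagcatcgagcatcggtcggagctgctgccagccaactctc
*Vcl*, chr14:20929148-20929397, plus strand: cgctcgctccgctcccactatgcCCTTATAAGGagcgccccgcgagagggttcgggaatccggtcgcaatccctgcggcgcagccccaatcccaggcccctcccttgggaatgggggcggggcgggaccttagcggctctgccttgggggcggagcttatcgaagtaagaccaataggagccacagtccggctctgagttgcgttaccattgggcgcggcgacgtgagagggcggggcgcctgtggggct
*Ldb3*, chr14:34588682-34588931, minus strand: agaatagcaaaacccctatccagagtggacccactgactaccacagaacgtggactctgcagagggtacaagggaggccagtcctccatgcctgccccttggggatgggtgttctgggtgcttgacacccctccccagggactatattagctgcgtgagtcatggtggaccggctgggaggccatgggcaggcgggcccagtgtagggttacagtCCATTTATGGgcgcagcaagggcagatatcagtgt
The motifs begin 82 and 62 bases before the start of *Srf*, 161 before *Myl9*, 227 before *Vcl* and 35 before this start of *Ldb3*. *Srf* was the 1 gene of these 4 with a pair of motifs.

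Excitability and calcium genes were the least uniform group. *Kcnmb1*, the regulatory subunit of the large-conductance potassium channel, was the 1 gene of 8 called on average (0.46 ± 0.09, adjusted p = 0.0432). *Pcp4*, a calmodulin-binding peptide, measured 15.72 and 16.05 in control DMSO pools, 16.46 and 16.60 with purmorphamine, and 15.75 and 15.60 against 15.78 and 16.34 in *Pparg-cKO* (averaged 0.51 ± 0.14, adjusted p = 0.0729). The caveolin gene *Cav1* had differences of 0.58 and 0.87 in the genotypes and did not pass on average (adjusted p = 0.0828), and the L-type calcium channel gene *Cacna1c* had 0.08 and 0.35 (adjusted p = 0.124). *Pln*, the inhibitor of the calcium pump of the sarcoplasmic reticulum, did not clear background in the control DMSO pools. With purmorphamine it measured 6.63 and 7.28 in control ureters, against a mean floor of 6.45 for the dim pools. The bound of 1.42-fold is taken on the mean of the pools and rests mainly on the female pool. *Pln* also entered the test only through the purmorphamine groups. The bound for the calcium release channel *Ryr2* was 1.15-fold in control ureters, where it equals the measured difference. It was 1.04-fold in *Pparg-cKO* ureters, where 1 of 2 purmorphamine pools was above background. Neither was called (adjusted p of 0.126 and 0.331 on average). *Chrm2* was not well above background in any pool.

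The muscarinic receptor gene *Chrm3* and the calcium store gene *Casq2* were lower with purmorphamine in both *Pparg-cKO* pairs. *Chrm3* measured 8.61 and 8.42 in control DMSO pools, 8.53 and 8.48 with purmorphamine, 9.0 and 9.15 in *Pparg-cKO* DMSO pools and 8.64 and 8.61 with purmorphamine. The *Pparg-cKO* DMSO pools were the highest, and the other groups lay close together. Its purmorphamine difference was -0.45 ± 0.11 in *Pparg-cKO* (adjusted p = 0.0992) and -0.0081 ± 0.11 in control ureters. *Casq2* measured 7.69 and 7.40 against 7.75 and 7.90 in control and 7.53 and 8.01 against 7.29 and 7.48 in *Pparg-cKO*, a difference of 0.28 ± 0.15 and of -0.39 ± 0.15 (adjusted p of 0.420 and 0.243).

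The second question was whether loss of *Pparg* in the epithelium was accompanied by a change in muscle genes. The genotype comparisons use the same pools as the purmorphamine comparisons. With DMSO, *Chrm3* was the 1 gene of 38 called, higher in *Pparg-cKO*, and 0 were lower, against 1.91% of all genes higher, 1.76% lower and 3.68% in either direction. The difference of *Chrm3* was 0.56 ± 0.10 (1.47-fold, adjusted p = 0.0399), from male and female pairs of 0.39 and 0.73, and the call was lost when any one array was left out (adjusted p of 0.121 to 0.366). Before adjustment, p was under 0.05 for 1 gene with a higher and 4 with a lower value (8.01% and 7.76% of all genes). The 4 were *Des*, *Prkg1*, *Ppp1r14a* and *Cacna1c*, with differences of -0.88 ± 0.26, -0.44 ± 0.18, -0.37 ± 0.14 and -0.25 ± 0.09 (adjusted p of 0.166, 0.315, 0.254 and 0.266). Another, much dimmer *Cacna1c* probe had a difference of -0.03 (adjusted p = 0.945). *Des* was lower in both pairs, with differences of -0.40 and -1.36. Without *Pparg-cKO* replicate 1 the difference of *Des* was -1.32. That value rests on 1 *Pparg-cKO* DMSO pool, the lower of the 2 (9.63 against 10.52). Some markers of other cell types were also called with DMSO, where 1.91% of all genes were higher and 1.76% lower. In *Pparg-cKO* ureters *Kdr* (1 of 5 endothelial markers), *Epcam* (1 of 9 urothelial markers) and *Myl7* (1 of 6 cardiac genes) were higher. *Upk1b* of the urothelial markers and *Cspg4* of the 7 pericyte markers were lower, and 0 of 7 fibroblast markers were called. All 4 fat cell markers were lower in both pairs with a median of -1.66 and by the rule of the methods, with 0 called. Their part in the genotype differences of the smooth muscle genes was not tested.

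The median genotype difference of the 38 genes with DMSO was -0.0015, made of opposite pairs. The male pair had a median of 0.21 and the female pair of -0.21. In both pairs 4 of the 38 genes were higher and 6 lower (27.1% and 28.2% of all genes), and the same numbers did not overlap between the genotypes (21% and 21.6%). For the male and then the female pair, *Myh11* had 0.44 and -0.43, *Acta2* 0.30 and -0.29, and *Cnn1* 0.38 and -0.42. In each case the male control pool was the lowest of the 4 DMSO pools and the female control pool the highest. The fitted differences of these 3 genes were 0.0027 ± 0.20, 0.0077 ± 0.19 and -0.02 ± 0.20, so that differences of a size like their standard errors could not be seen with these pools.

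**Figure D5:**
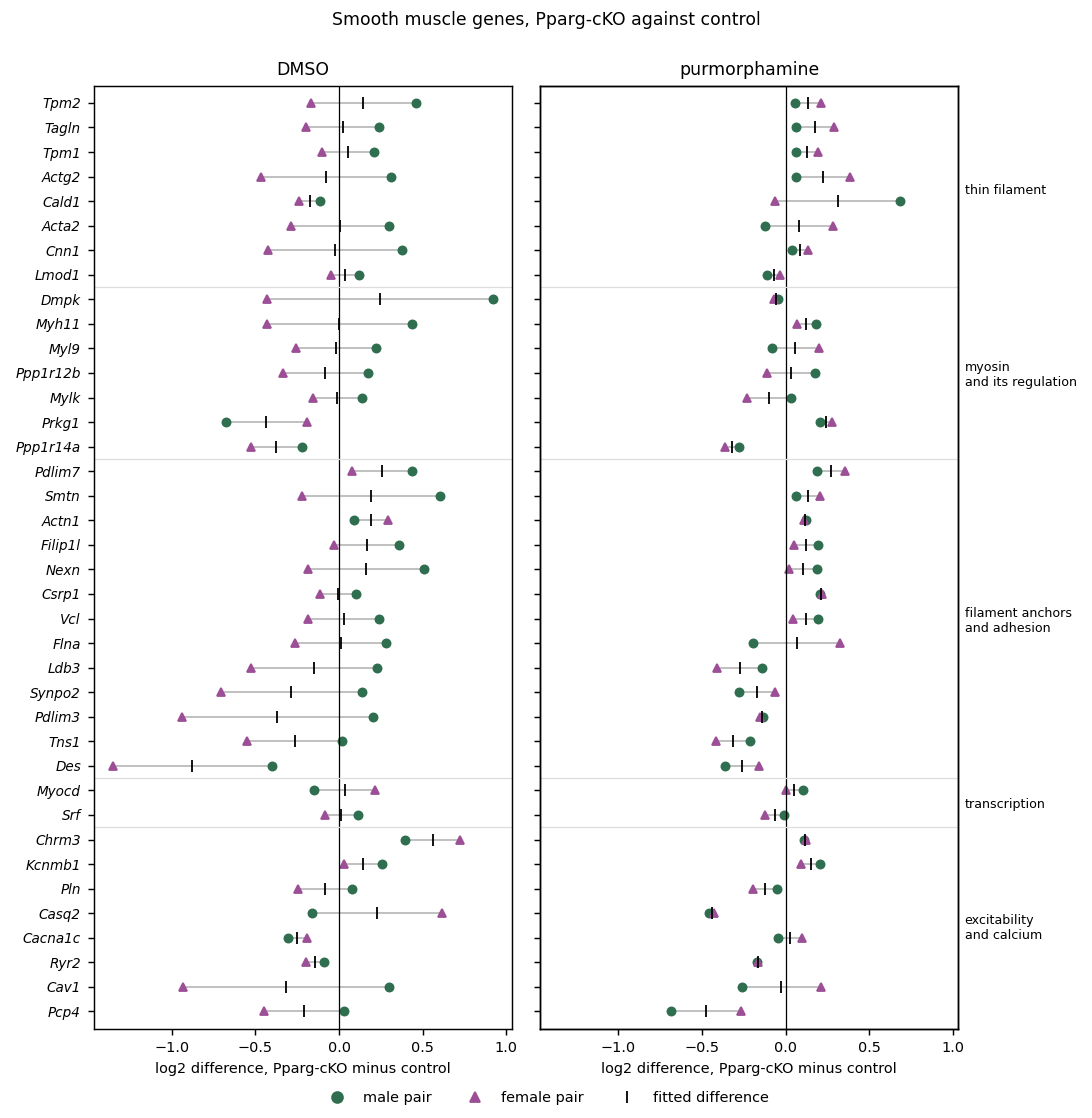
Log2 difference, *Pparg-cKO* minus control, of 38 smooth muscle genes with DMSO (left) and purmorphamine (right), with circles for the male pair, triangles for the female pair and a tick for the fitted difference, grouped by role. With DMSO the circles and triangles of most genes lie on opposite sides of 0, and *Chrm3* and *Des* lie apart from 0 in both pairs.

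With purmorphamine, 0 of the 38 genes were called between the genotypes, against 2.87% of all genes. Before adjustment, p was under 0.05 for 0 genes with a higher value and for 1, *Casq2*, with a lower value (6.69% and 8.92% of all genes). The median difference was 0.06, from medians of 0.04 (male) and 0.05 (female). In both pairs 17 of the genes were higher and 13 lower (34.3% and 35.6% of all genes), and 10 and 5 did not overlap between the genotypes (23.2% and 24.6%). The range ran from -0.47 ± 0.20 for *Pcp4* to 0.31 ± 0.20 for *Cald1* (adjusted p of 0.326 and 0.545). By the rule of the methods, 0 of the genes differed between the genotypes with either treatment. Of the genes passing its intensity threshold, 2.59% were higher and 2.92% lower with DMSO, and 3.06% and 3.23% with purmorphamine.

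The third question was whether the response to purmorphamine depended on the genotype. The interaction (difference in *Pparg-cKO* minus difference in control) was called for 0 of 38 and 0 of 20229 genes, a background of 0%. Before adjustment, p was under 0.05 for 1 positive and 2 negative interactions (1.58% and 1.73% of all genes). These were *Prkg1* with 0.68 ± 0.22, *Casq2* with -0.67 ± 0.22 and *Chrm3* with -0.44 ± 0.16 (adjusted p = 0.99992 for each). The median interaction of the 38 genes was 0.04, the male pools giving -0.23 and the female pools 0.26.

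Further smooth muscle genes outside the 39 were counted in the same fits. Of 34 other contractile and cytoskeletal genes, 29 were positive with purmorphamine in each genotype, with medians of 0.31 in control and 0.49 in *Pparg-cKO* ureters. Of these, 0 were called in control and 5 rose in *Pparg-cKO* (1.85% of all genes rose there), led by the adhesion adaptor *Lims2* (1.12 ± 0.19, adjusted p = 0.0486), the LIM protein gene *Fhl1* (1.08 ± 0.11, adjusted p = 0.0198) and the chaperone gene *Cryab* (1.05 ± 0.16, adjusted p = 0.0419). On average 14 rose and 1 fell, against 5.99% and 7.51% of all genes. Of 15 other regulators of tone, both subunits of the nitric oxide receptor guanylate cyclase, *Gucy1a3* and *Gucy1b3*, rose in *Pparg-cKO* (1.85% of all genes). *Gucy1a3* measured 11.28 and 11.66 in control DMSO pools, 12.59 and 12.78 with purmorphamine, and 11.64 and 11.07 against 13.24 and 13.22 in *Pparg-cKO* (1.88 ± 0.16, 3.68-fold, adjusted p = 0.0163), and *Gucy1b3* rose by 1.64 ± 0.17 (adjusted p = 0.0209). On average 5 of the 15 rose and 0 fell, against 5.99% and 7.51% of all genes.

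Of 26 other channels, pumps and receptors, the oxytocin receptor gene *Oxtr* and the gap junction gene *Gja1* fell with purmorphamine in *Pparg-cKO* ureters, by 1.56 ± 0.23 (adjusted p = 0.0385) and 1.26 ± 0.17 (adjusted p = 0.0346). Of all genes, 2.8% fell there. On average 5 of the 26 rose and 2 fell, against 5.99% and 7.51% of all genes. Between the genotypes, the chloride channel gene *Ano1* was lower in *Pparg-cKO* with DMSO, with 14.47 and 14.44 against 14.98 and 15.27 in control pools (-0.67 ± 0.12, adjusted p = 0.0393). The ATP-gated channel gene *P2rx1* was lower in *Pparg-cKO* with purmorphamine, with 7.60 and 7.91 against 8.59 and 8.72 (-0.90 ± 0.12, adjusted p = 0.0198). In both cases the genotypes did not overlap.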

How the data were processed

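The authors deposited scanner files from Agilent Feature Extraction (10.7.3.1 per the labels; the headers name another version). Per the file headers, these hold for each spot and dye a mean pixel intensity, its local background and a processed intensity with background subtracted and dye bias removed. The deposited log10 ratio of red over green served to check the dyes. The authors also deposited, in the value table of the series, a signed fold change per probe and array (unit score, normalization not stated), used only as an alternative for named genes.

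Outlier spots were left out and the 4 spots of a probe averaged. Intensities were corrected with normexp (offset 50), normalized by loess within arrays and by Aquantile between arrays, and tested on the log2 scale with limma 3.58.1 in R 4.3.3. Genotype differences came from a separate-channel fit (intraspot correlation of 0.0579, from 4000 probes) and purmorphamine with DMSO by the ratio within arrays, with dye-swapped arrays turned, a coefficient per genotype and their difference as the interaction. All groups entered each fit. Probes well above background (at least 3 of 4 spots) in both pools of a group were tested (27064 probes, 20229 genes), p-values were Benjamini-Hochberg adjusted (threshold 0.05), and the brightest probe stood for a gene. For a bound, each pool of the dim group takes the lowest intensity of any probe above background, or its own intensity where that is higher. The rule of the methods used processed intensities, each channel scaled to a 75th percentile of 1500 with a floor of 15.

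The genes and lists were chosen with earlier results of these data known. Values per pool are given for the core markers, for genes called in any comparison and for genes changed by the rule of the methods; *Cald1* and *Casq2* were added after their values were seen. Of the other smooth muscle lists, up to 3 called genes per comparison are named. The fits were also run on simulated data with noise drawn independently for each pool. That run does not cover the correlations between pools given below, and no result here rests on it. Only 2 pools per group limit the precision. Alternatives were the background correction, normalization, filter, probe choice, block, samples in the fit, leaving out each array and the rule of the methods.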

Additional observations from a re-analysis of the deposited data

Results flagged for a closer look

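By the brightest probe, *Cald1* and *Casq2* had purmorphamine differences of opposite sign in the genotypes in both pairs. For *Cald1* they were -0.14 and -0.17 in control and 0.66 and 0.01 in *Pparg-cKO* ureters, an interaction of 0.49 ± 0.25. For *Casq2* they were 0.05 and 0.51 in control and -0.24 and -0.54 in *Pparg-cKO* ureters, an interaction of -0.67 ± 0.22. A second *Cald1* probe did not show opposite signs in the female pairs. It measured 12.10 against 12.04 with purmorphamine in control and 11.86 against 11.76 in *Pparg-cKO* female pools. The genotype difference of *Prkg1* (*Pparg-cKO* minus control) was -0.68 and -0.19 with DMSO and 0.21 and 0.28 with purmorphamine, an interaction of 0.68 ± 0.22. None of the 3 interactions passed after adjustment in limma.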

How the results depend on the processing

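The median purmorphamine difference of the smooth muscle genes stayed positive under every alternative run, in each genotype and on average. In *Pparg-cKO* ureters it was 0.727 with processed intensities and 0.525 to 0.787 when 1 array was left out, and on average 0.486 with the mean of a gene's probes, 0.587 with normexp offset 0, 0.675 with processed intensities and 0.499 to 0.653 with 1 array left out. The genotype median with purmorphamine was -0.113 with no normalization between arrays, 0.0752 with only probes above background in all 8 channels, and -0.010 to 0.113 with 1 array left out. With no normalization between arrays the median of all genes itself shifted to -0.148 (DMSO) and -0.151 (purmorphamine), and 335 of 1013 and 183 of 889 calls were higher in *Pparg-cKO*, against 387 of 744 and 233 of 580.

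Counts of called genes moved most. In *Pparg-cKO* purmorphamine called 2 of the 38 genes, against 1 with the mean of probes, 0 with no filter, offset 0 or processed intensities, 5 with only the groups compared, 4 with quantile normalization, 11 by the rule of the methods and 0 to 7 with 1 array left out. In control ureters the 0 became 3 with only the groups compared, 11 by the rule of the methods and 0 to 4 with 1 array left out. The averaged 20 became 11 with no filter and 5 to 20 with 1 array left out. A threshold of 2-fold in the rule of the methods left 1 gene in each genotype. *Chrm3* between the genotypes with DMSO was lost, leaving 0 calls, with offset 0, with only the groups compared and by the rule of the methods, and 0 to 1 genes were called with 1 array left out. The cause of these changes was not tested. Leave-one-out fits kept the intraspot correlation of the full fit, and the interaction and the average could not be fitted with only 1 pair of groups.

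Over all genes, the 744 called with DMSO between the genotypes became 409 with only the groups compared and 0 to 494 with 1 array left out, and the 580 with purmorphamine became 889 with no normalization between arrays, 110, 962 by the rule of the methods and 0 to 311. The 941 called for purmorphamine in *Pparg-cKO* became 286 with no filter, 570 with processed intensities and 164 to 1008 with 1 array left out, and the 243 in control ureters 0, 72 and 0 to 608, with 136 at offset 0, 582 with only the groups compared and 988 by the rule of the methods. The averaged 2731 became 1185 to 2157 with 1 array left out, and the interaction called 93 genes without *Pparg-cKO* replicate 1.

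Pools with the same replicate number share sex, and those of the 2 genotypes under 1 treatment also the dye. Whether pools share animals is not given in the sources used here. Deviations of same-numbered pools from their group means correlated at -0.171 between the DMSO pools of the genotypes, at 0.482 between their purmorphamine pools, and between treatments at 0.0223 in control and 0.354 in *Pparg-cKO* ureters. With the replicate number as a block, 292 and 130 genes were called between the genotypes with DMSO and purmorphamine, 0 of them smooth muscle genes of the 38. With the numbers crossed, an alternative chosen after seeing the data, 177 genes were called with DMSO, again 0 of the 38.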
